A study of Mus musculus with 9 samples.

Results

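Mitochondrially encoded messenger and transfer RNAs were described in mouse hepatic stellate cells, as 8 members of the 14020 rows of the deposited table: ND6, TrnE, TrnQ, ND1, ND2, ND4, ND5 and COX1. They were chosen by name as rows of the mitochondrial genome, with their values in these libraries already known, so every difference between genotypes below is a description of the members and no test of them. Of these 8 members, 3 lie on the light strand (ND6, TrnE and TrnQ) and 5 on the heavy strand. Another 12 mitochondrial rows were used for comparison, which makes 20 rows of the 37 mitochondrial genes; the other 17 were not analysed here.

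The mitochondrial genome is a small circular DNA that encodes core subunits of the respiratory chain, the ribosomal RNAs of the mitochondrial ribosome and the transfer RNAs it reads with. Both of its strands are transcribed into long precursors, and RNA-cutting enzymes release the mature RNAs, in many places at the transfer RNAs that lie between them. By the naming used here most genes lie on the heavy strand, while ND6 and a minority of transfer RNAs lie on the light strand, so the members compared here come from oppositely directed precursors.

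RNA was sequenced from cultures of hepatic stellate cells, pericytes of the liver sinusoid that store vitamin A, kept for 4 days in DMEM with fetal bovine serum, glutamine and antibiotics and given no further treatment. The 3 genotype groups had 3 libraries each: Nbr1Sqstm1 double knock-out (DKO), Sqstm1 knock-out (KO), and wild type (WT). Sqstm1 encodes p62 and Nbr1 encodes a related receptor, and both bring cargo to autophagosomes. The labels give no strain, sex, age, targeting method or Cre driver, and they do not say whether libraries came from separate animals or cultures, although the series' design text calls its replicates biological, so p-values measure the spread between these samples. Levels are normalized counts, which are read counts the authors divided by a size factor per library.

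Sqstm1 was lowered in both mutant groups, with 25.8, 51.4 and 59.9 normalized counts in DKO libraries, 40.8, 30.8 and 86.8 in KO libraries, and 223, 255 and 243 in WT libraries. The log2 differences were -2.45 for DKO against WT (SE 0.38, adjusted p = 0.00116 in limma) and -2.30 for KO against WT (SE 0.38, adjusted p = 0.0023), and Mrnip has exons opposite to those of Sqstm1. Nbr1 had 81.3, 79.9 and 111 normalized counts in DKO libraries, 75.5, 72.2 and 88.9 in KO libraries, and 106, 92.7 and 106 in WT libraries, and it did not pass the test in any comparison, so its RNA does not check the double knock-out label. The series' design text speaks of an Nbr1 knock-out, which none of the sample labels gives, and the genotypes here are those of the labels. Counted reads ranged between 819677 and 1467793 per library. Of 12 stellate markers 7 had a row and summed to 4123 to 6259 normalized counts in DKO libraries, 4824 to 5768 in KO libraries and 1342 to 1479 in WT libraries. These 7 did not differ alike. For KO against WT the log2 differences were -0.08 for Pdgfrb, 1.12 for Col3a1, 1.15 for Col1a1 and 2.01 for Hand2. They were 2.84 for Col1a2, 3.25 for Acta2 and 3.83 for Dcn. For DKO against KO they were 0.32 for Pdgfrb, 0.61 for Col3a1, -0.04 for Col1a1, -0.50 for Hand2 and -0.28 for Col1a2. Acta2 (-1.14) and Dcn (1.81) passed the test in that comparison, and the other markers of the 7 did not. The differences for DKO against WT ranged between 0.24 for Pdgfrb and 5.65 for Dcn. Lrat, Des, Reln, Rgs5 and Lum were not analysed here. Hepatocyte markers had 0 of 6 rows, and the 4 of 8 macrophage markers with a row summed to 14.3 to 29.3 normalized counts in DKO libraries, 8.68 to 12.3 in KO libraries and 20.3 to 35.4 in WT libraries. Of these 4, 1 had a mean of at least 10. Cd14, which is among them, differed by -3.24 for KO against WT, 2.53 for DKO against KO and -0.71 for DKO against WT (SE 0.59 each). The 2 of 6 portal fibroblast and mesothelial markers with a row summed to 299 to 303 in DKO libraries, 231 to 427 in KO libraries and 172 to 224 in WT libraries, and the 2 of 5 cholangiocyte markers to 25.8 to 49.1, 29.2 to 34.7 and 16.3 to 26.4 in that order. Endothelial and lymphocyte markers, with 1 of 5 rows each, stayed at or below 16.3 in every library. KO replicate 3 stood apart, with 12673 genes detected, the fewest of the 9 libraries, and with 18.5% of its reads in its 10 highest genes, the largest such share. The part of these marker, depth and library differences in the results below was not tested, and in bulk RNA fewer cells of a type and less RNA per cell cannot be told apart.

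The sequences of the pair of transfer RNAs with the largest differences are given first, with the anticodon in capitals, followed by the last 60 bases of the ND6 and ND5 coding sequences, which lie end to end on opposite strands and share 14 bases, in capitals. All 4 are written 5′ to 3′ as DNA, from the GENCODE release M21 transcripts on GRCm38, matched by name.
TrnE: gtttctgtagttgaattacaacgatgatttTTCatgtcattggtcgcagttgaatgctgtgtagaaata
TrnQ: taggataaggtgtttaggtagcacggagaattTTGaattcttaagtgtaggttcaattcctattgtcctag
ND6: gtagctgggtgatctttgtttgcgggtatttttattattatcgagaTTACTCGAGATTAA
ND5: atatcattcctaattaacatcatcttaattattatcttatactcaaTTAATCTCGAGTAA
The TrnE sequence has 69 bases, with its anticodon TTC at bases 31 to 33, and the TrnQ sequence has 71 bases, with TTG at bases 33 to 35. In the order of genes around the circle, TrnE lies between ND6 and CYTB, and TrnQ lies between TrnI and TrnM. The light-strand ND6 message is 28.1% G and 5.97% C, whereas the 5 heavy-strand messages among the members are 8.0% to 16.1% G and 23.8% to 27.7% C. No source used here gives the library kit or the strand setting of the counting, so reads of these rows cannot be assigned to 1 strand, nor to a mature RNA rather than a precursor or an antisense RNA that runs across it. Copies of mitochondrial sequence in the nuclear genome can also take or lend reads, which makes the rows' counts uncertain.

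TrnE and TrnQ, the transfer RNAs for glutamate and glutamine, were the members that stood lowest in DKO relative to the other groups. TrnE had 66.9, 177 and 102 normalized counts in DKO libraries, 589, 450 and 534 in KO libraries, and 562, 476 and 409 in WT libraries. All 3 DKO libraries lay below all 6 of the others, and the KO and WT ranges overlapped. On the log2(value + 1) scale the difference was -2.16 (SE 0.32, n = 3 each) for DKO against WT, or 4.46 times lower, and -2.28 (SE 0.32) for DKO against KO, or 4.85 times lower. KO differed from WT by 0.12 (SE 0.32), less than its error.

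TrnQ was far less abundant, with 9.56, 10.3 and 12.7 normalized counts in DKO libraries, 27.6, 30.8 and 82.4 in KO libraries, and 61.3, 61.8 and 55.8 in WT libraries. These DKO values rest on 10, 9 and 10 reads, and the exact 95% Poisson limits of the first are 4.80 to 18.4 reads, against 45, 82 and 92 reads in the WT libraries; such limits cover counting error only. Again every DKO library was below every other library, while KO replicates 1 and 2 lay below the WT range and KO replicate 3 above it. The difference was -2.36 (SE 0.38) for DKO against WT, or 5.14 times lower, and -1.85 (SE 0.38) for DKO against KO, or 3.59 times lower. For KO against WT it was -0.52 (SE 0.38), and -1.01 without KO replicate 3.

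ND6, the light-strand message for a membrane subunit of respiratory complex I, followed another pattern. It had 5421, 11125 and 10708 normalized counts in DKO libraries, 15026, 12861 and 37163 in KO libraries, and 11346, 8778 and 8168 in WT libraries. The 3 KO libraries were above all of the other 6, with KO replicate 3 far above the rest, and the DKO and WT ranges overlapped. ND6 differed by 1.05 (SE 0.55) for KO against WT, by -1.16 (SE 0.55) for DKO against KO and by -0.11 (SE 0.55) for DKO against WT. Without KO replicate 3 the first difference was 0.57 and the second -0.69, and without DKO replicate 1 the third was 0.23, so its sign rests on that library.

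**Figure D1:**
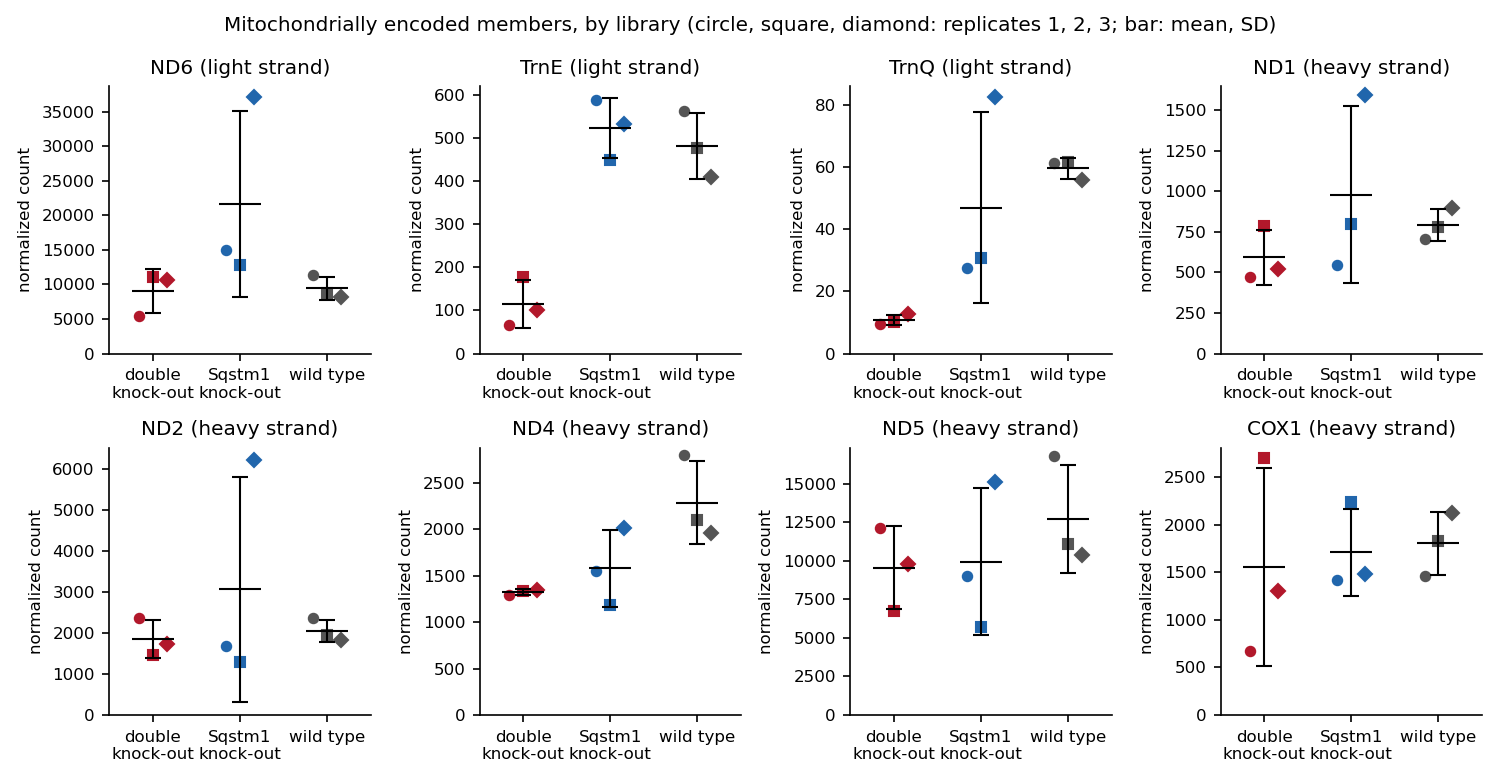
Normalized counts (vertical axis, from 0) of the 8 members in each library of the DKO, KO and WT groups, with a bar at the mean and error bars of 1 SD. TrnE lies at 66.9 to 177 in DKO libraries and at 409 or more in every KO and WT library, while ND6 is highest in the KO group, where replicate 3 reaches 37163.

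The heavy-strand messages among the members encode subunits of complex I (ND1, ND2, ND4 and ND5) and the catalytic subunit of complex IV (COX1). ND4 had 1288, 1337 and 1345 normalized counts in DKO libraries, 1553, 1185 and 2012 in KO libraries, and 2801, 2100 and 1967 in WT libraries. The DKO libraries lay close together and below all WT libraries, with a difference of -0.77 (SE 0.31) for DKO against WT, and the KO range overlapped with both. ND4 differed by -0.55 (SE 0.31) for KO against WT and by -0.23 (SE 0.31) for DKO against KO.

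ND5 had 12104, 6734 and 9785 normalized counts in DKO libraries, 9004, 5688 and 15100 in KO libraries, and 16767, 11071 and 10369 in WT libraries. Its groups overlapped in every comparison, and its differences were -0.42 for DKO against WT, 0.01 for DKO against KO and -0.44 for KO against WT (SE 0.52 each). ND1 had 472, 785 and 523 normalized counts in DKO libraries, 546, 799 and 1592 in KO libraries, and 704, 778 and 896 in WT libraries. The ND1 groups overlapped too, with KO replicate 3 the highest library, and the differences were -0.45 for DKO against WT, -0.61 for DKO against KO and 0.17 for KO against WT (SE 0.36 each), the last of which was -0.26 without KO replicate 3.

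ND2 had 2360, 1467 and 1723 normalized counts in DKO libraries, 1673, 1293 and 6233 in KO libraries, and 2357, 1963 and 1833 in WT libraries. Its KO mean rests on replicate 3, which was 4.82 times the lowest KO library, and without it the difference of KO from WT was -0.47 in place of 0.22, and that of DKO from KO 0.30 in place of -0.39. COX1 had 667, 2700 and 1300 normalized counts in DKO libraries, 1418, 2237 and 1478 in KO libraries, and 1463, 1825 and 2117 in WT libraries. COX1 varied more among DKO libraries, by 4.05 times, than its group means differed, with -0.42 for DKO against WT, -0.33 for DKO against KO and -0.09 for KO against WT (SE 0.43 each). Without DKO replicate 1 the first of these was 0.07 and the second 0.16.

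In the limma fit over all 10118 genes tested, at an adjusted p under 0.05, the members past the threshold were TrnE and TrnQ. That made 2 of 8 lower in DKO against WT, where 6.42% of all genes tested passed (4.11% higher and 2.31% lower), and 2 of 8 lower in DKO against KO, where 5.93% passed (4.42% higher and 1.51% lower). In KO against WT it was 0 of 8, where 5.61% of all genes tested passed (2.43% higher and 3.18% lower), and 1959 genes had an unadjusted p under 0.05. No overlap between groups was seen for 3 members lower in DKO against WT (background 15.5% of genes), 3 lower in DKO against KO (9.47%) and 1 higher in KO against WT (12.4%). The members were chosen with these contrasts known, so nothing is read from these counts. The 3 comparisons share libraries and are not independent of each other.

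Over the 8 members the median log2 difference was -0.43 for DKO against WT, -0.50 for DKO against KO and 0.02 for KO against WT, against -0.02, -0.01 and -0.01 over all genes tested. Without KO replicate 3 the second was -0.31 and the third -0.36. All 8 members had a negative difference for DKO against WT, where 51.2% of all genes did, although ND6 turned positive (0.11) after quantile normalization. The rows of the mitochondrial genome took 2.47% ± 0.28 of counted reads in DKO libraries, 3.64% ± 1.07 in KO libraries and 3.31% ± 0.16 in WT libraries (SD, n = 3 each). The KO share was 4.88% in replicate 3, which also had the highest ND6, ND1, ND2 and TrnQ of all 9 libraries.

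Within the mitochondrial rows, ND5 and ND6 together took 63.5% to 74.2% of reads in every library. ND6 took 22.7%, 40.6% and 38.8% of these reads in DKO libraries, 45.8%, 46.2% and 52.7% in KO libraries, and 29.2%, 29.2% and 28.0% in WT libraries. ND5 took 50.7%, 24.6% and 35.5% in DKO libraries, 27.4%, 20.5% and 21.4% in KO libraries, and 43.1%, 36.9% and 35.5% in WT libraries. The KO libraries thus all gave more reads to ND6 than to ND5 and the WT libraries fewer, while the DKO libraries were divided.

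Per kilobase of gene, ND6 was the highest of the 20 rows in all groups, with means of 17505, 41779 and 18171 normalized counts per kilobase in DKO, KO and WT. As the strand counted is unknown, this and the order below rank rows, which may hold antisense reads. Among the messages of the members ND5 came next, at 5231, 5445 and 6982 in that order of groups, then ND2 at 1782, 2954 and 1976. ND4 (960, 1149 and 1661), COX1 (1007, 1107 and 1166) and ND1 (620, 1023 and 828) followed. In KO the SDs of ND2, ND4, COX1 and ND1 overlap, so no order is read among them. In DKO the SD of COX1 (673) spans both ND4 and ND1. COX1 (1748) also lay above ND2 (1413) in DKO replicate 2, so the place of COX1 is not read in DKO. In WT, ND4 (SD 325) was above COX1 (SD 212) in 3 of 3 libraries and ND1 (SD 101) below COX1 in 3 of 3. TrnE had 1670 ± 815, 7596 ± 1018 and 6994 ± 1113 per kilobase in DKO, KO and WT (SD, n = 3 each), which does not separate it from ND5 in KO or WT. TrnQ had 153, 661 and 840 per kilobase in DKO, KO and WT. A transfer RNA gene can be shorter than a read, so a value per kilobase is not on the same footing for it as for a message.

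The other mitochondrial rows were compared to see whether light-strand position went with these patterns. TrnC, the light-strand transfer RNA for cysteine, had 117, 799 and 397 normalized counts in DKO libraries, 759, 584 and 1977 in KO libraries, and 513, 392 and 412 in WT libraries. Its differences of 1.13 for KO against WT, -1.52 for DKO against KO and -0.39 for DKO against WT (SE 0.57 each) lay nearer to those of ND6 than to those of TrnE. TrnP, the light-strand transfer RNA for proline, had 97.5, 105 and 132 normalized counts in DKO libraries, 89.8, 56.8 and 184 in KO libraries, and 98.1, 111 and 121 in WT libraries.

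The DKO and WT ranges of TrnP overlapped and its differences were smaller than their error, at 0.01 for DKO against WT, 0.17 for DKO against KO and -0.16 for KO against WT (SE 0.35 each). TrnA, the light-strand transfer RNA for alanine, had 32.5, 51.4 and 68.8 normalized counts in DKO libraries, 54.1, 63.3 and 117 in KO libraries, and 95.3, 97.2 and 82.5 in WT libraries, with DKO below WT in all libraries by a log2 difference of -0.90 (SE 0.34). TrnY, for tyrosine, had at most 8.17 normalized counts in any library and was not tested. The light-strand rows therefore did not move together.

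On the heavy strand, TrnI and TrnW, for isoleucine and tryptophan, were lower in DKO than in WT in all libraries, with differences of -1.32 and -1.50 (SE 0.52 each), on 9.13 to 17.8 normalized counts in DKO libraries and 31.3 to 46.7 in WT libraries. TrnT, for threonine, was also without overlap, at 37.3, 95.9 and 77.7 normalized counts in DKO libraries and 131, 104 and 112 in WT libraries (-0.81, SE 0.38). TrnM, for methionine, ranged between 1.14 and 30.4 normalized counts over the 9 libraries, and its differences had an SE of 0.85. None of these 3 comparisons without overlap passed the test. With TrnA and the ribosomal RNA mt-Rnr2, 5 of the 10 tested rows outside the members were lower without overlap in DKO against WT. Of all genes tested, 15.5% were. CYTB, the message for cytochrome b of complex III, had 495, 1353 and 746 normalized counts in DKO libraries, 894, 1232 and 1457 in KO libraries, and 987, 1116 and 1258 in WT libraries. CYTB, which lies next to TrnE, thus overlapped between all groups. ND3 was at 0 reads in the 3 DKO libraries and at 0 to 14.1 normalized counts in the others, and was not tested.

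The ribosomal RNAs had their lowest group means in DKO. The large-subunit RNA mt-Rnr2 had 614, 610 and 600 normalized counts in DKO libraries, 970, 1153 and 2107 in KO libraries, and 844, 984 and 1222 in WT libraries. The small-subunit RNA mt-Rnr1 had 23.9, 49.1 and 39.5 normalized counts in DKO libraries, 65.3, 82.8 and 153 in KO libraries, and 40.9, 73.8 and 68.5 in WT libraries. Against WT, DKO differed by -0.70 for mt-Rnr1 (SE 0.37), with overlapping groups. For mt-Rnr2 it was -0.72 (SE 0.32) without overlap, and neither RNA passed the test against WT. Both lay below KO in all DKO libraries, by -1.36 for mt-Rnr1 (SE 0.37, adjusted p = 0.0452 in limma) and -1.13 for mt-Rnr2 (SE 0.32, adjusted p = 0.0504), and 7 of the 9 fits that left out a library lost the first. Of the 10 of 12 other rows that were tested, mt-Rnr1 in DKO against KO was the only call in any of the 3 comparisons. Among all genes tested, 5.93% passed in DKO against KO (1.51% lower), 6.42% in DKO against WT and 5.61% in KO against WT. For DKO against WT, 9 of 10 of these rows had a negative difference, where 51.2% of all genes did. Their median was -0.77, against -0.02 over all genes.

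**Figure D2:**
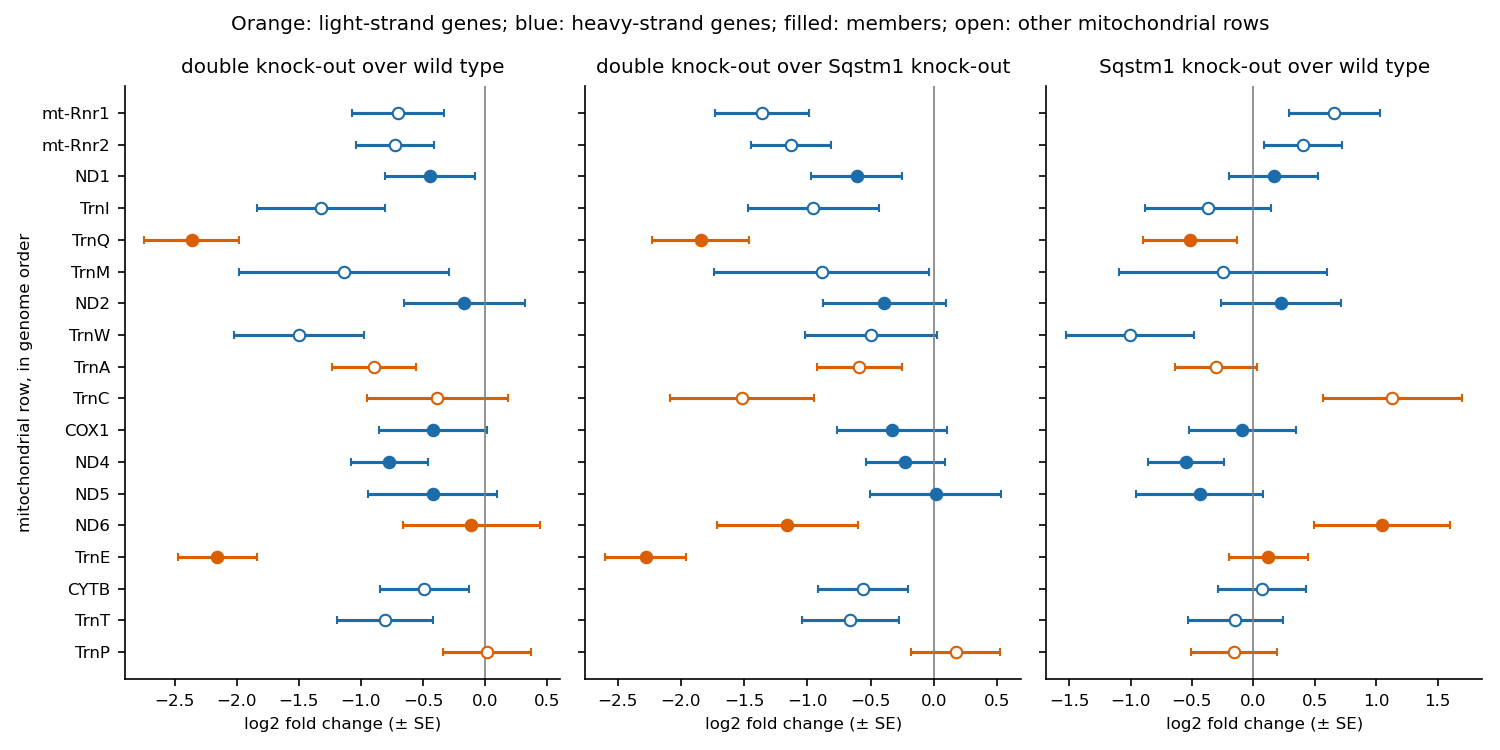
Log2 differences with SE (horizontal axis) of the 18 tested mitochondrial rows in genome order (vertical axis), for DKO over WT, DKO over KO and KO over WT, with light-strand rows in orange, heavy-strand rows in blue and members filled. TrnE and TrnQ lie near -2 in both DKO panels, whereas the light-strand rows ND6 and TrnC lie near 1 in KO over WT and TrnP stays near 0.

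Ratios between rows of the same library do not depend on the size factor. TrnE as a percentage of CYTB, its neighbour, was 13.5%, 13.1% and 13.7% in DKO libraries, 65.9%, 36.5% and 36.6% in KO libraries, and 57.0%, 42.6% and 32.5% in WT libraries. As a percentage of ND6, its other neighbour, it was 1.23%, 1.59% and 0.951% in DKO libraries, 3.92%, 3.50% and 1.44% in KO libraries, and 4.96%, 5.42% and 5.01% in WT libraries. The DKO libraries were the lowest by the CYTB ratio, and by the ND6 ratio KO replicate 3 lay inside the DKO range, with KO below WT in all libraries.

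TrnQ as a percentage of ND2, a message near it on the circle, was 0.405%, 0.700% and 0.739% in DKO libraries, 1.65%, 2.39% and 1.32% in KO libraries, and 2.60%, 3.15% and 3.04% in WT libraries. The 3 groups were separate, with DKO lowest and KO between DKO and WT. TrnC as a percentage of ND6 was 2.15%, 7.18% and 3.71% in DKO libraries, 5.05%, 4.54% and 5.32% in KO libraries, and 4.53%, 4.47% and 5.05% in WT libraries. This ratio spread widely in DKO and stayed within 4.47% to 5.32% over the 6 KO and WT libraries.

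ND6 as a percentage of ND5, the gene it meets end to end, was 44.8%, 165% and 109% in DKO libraries, 167%, 226% and 246% in KO libraries, and 67.7%, 79.3% and 78.8% in WT libraries. All KO libraries were above all others by this ratio, but KO replicate 1 (167%) and DKO replicate 2 (165%) were nearly equal. KO replicate 3 was not apart from the other KO libraries in this ratio as it was in the ND6 level. COX1 as a percentage of ND5 was 5.51%, 40.1% and 13.3% in DKO libraries, 15.7%, 39.3% and 9.79% in KO libraries, and 8.72%, 16.5% and 20.4% in WT libraries. Among heavy-strand messages, too, ratios thus varied several-fold inside a group.

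**Figure D3:**
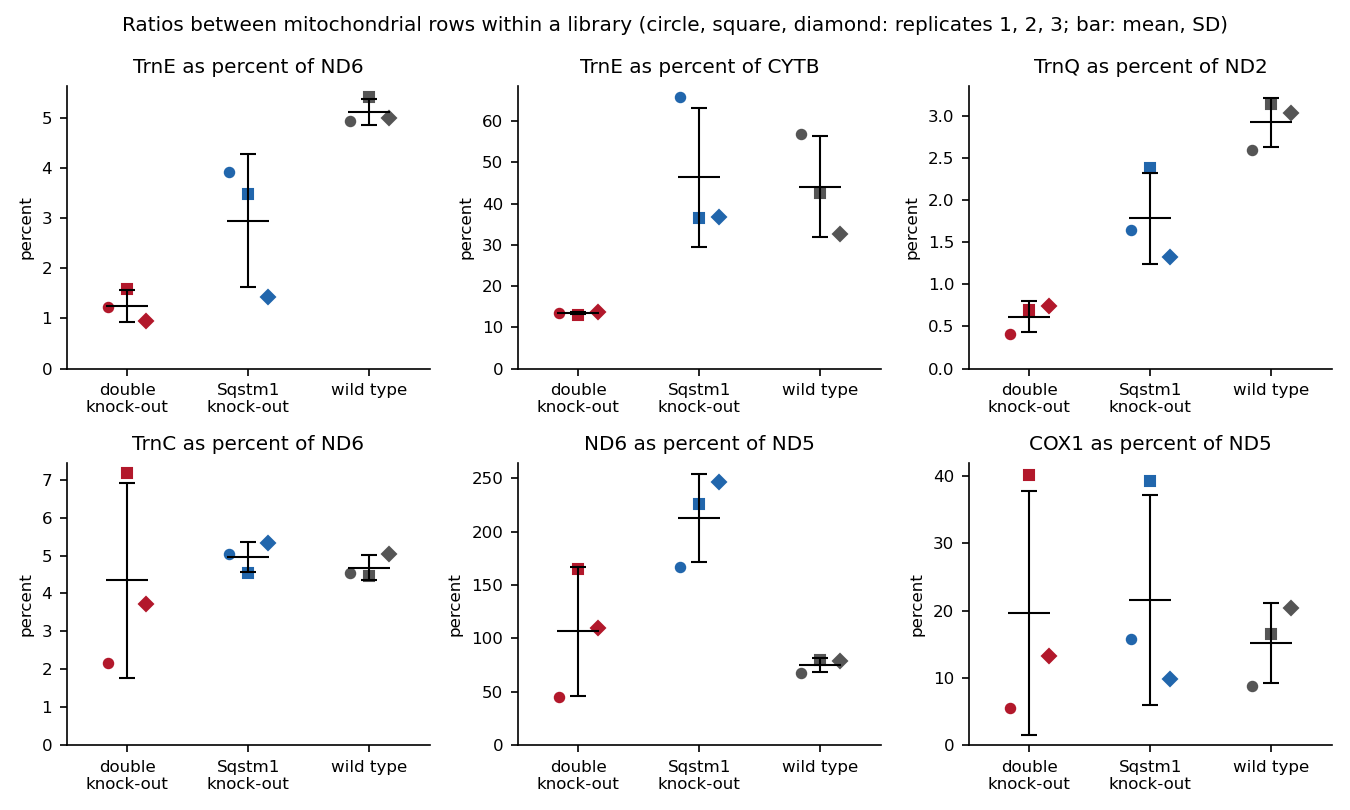
Ratios between mitochondrial rows within each library, in percent (vertical axis, from 0), for the DKO, KO and WT groups, with bars at the mean and error bars of 1 SD. TrnE as a percentage of CYTB is 13.1% to 13.7% in DKO libraries and 32.5% or more in all others, and ND6 as a percentage of ND5 is 167% to 246% in KO libraries and 165% or less in all others.

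The mean log2 value of the 3 light-strand members minus that of the 5 heavy-strand members was -2.99 ± 0.33 in DKO libraries, -1.54 ± 0.06 in KO libraries and -1.90 ± 0.12 in WT libraries (SD, n = 3 each). By library it was -3.38, -2.79 and -2.81 in DKO, -1.50, -1.61 and -1.52 in KO, and -1.81, -1.85 and -2.03 in WT, so the groups were separate. The difference between groups was -1.10 for DKO against WT, -1.45 for DKO against KO and 0.35 for KO against WT. The members were chosen with their values known, so this separation is no test of strand. TrnE and TrnQ are transfer RNAs and the heavy-strand members are all messages, so strand and kind of RNA are mixed here. For DKO against WT, light-strand transfer RNAs outside this mean differed less (TrnA -0.90, TrnC -0.39, TrnP 0.01). The heavy-strand ones were lower too (TrnI -1.32, TrnM -1.14, TrnW -1.50, TrnT -0.81). The heavy-strand mean itself was 10.8 ± 0.13 in DKO, 11.1 ± 0.55 in KO and 11.2 ± 0.09 in WT on this scale, and the light-strand mean 7.80 ± 0.44 in DKO, 9.56 ± 0.57 in KO and 9.34 ± 0.18 in WT.

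This balance depended on which light-strand genes entered it. With ND6 as the light-strand gene on its own, the log2 difference from the heavy-strand messages was 2.29 ± 0.49 in DKO, 3.14 ± 0.29 in KO and 1.96 ± 0.17 in WT. The sign for DKO against WT then turned to 0.34, while KO against WT was 1.18 and DKO against KO -0.85. With counts summed in place of averaged logs, which ND6 dominates, the 3 differences were 0.22, 1.28 and -1.06 in the same order. The lower light-strand mean of DKO against WT thus came from TrnE and TrnQ. The higher one of KO against WT was larger for ND6 than for the 3 genes together. Relative to ND6, its neighbour on the same strand, TrnE was lower in each DKO library than in any WT library.

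**Figure D4:**
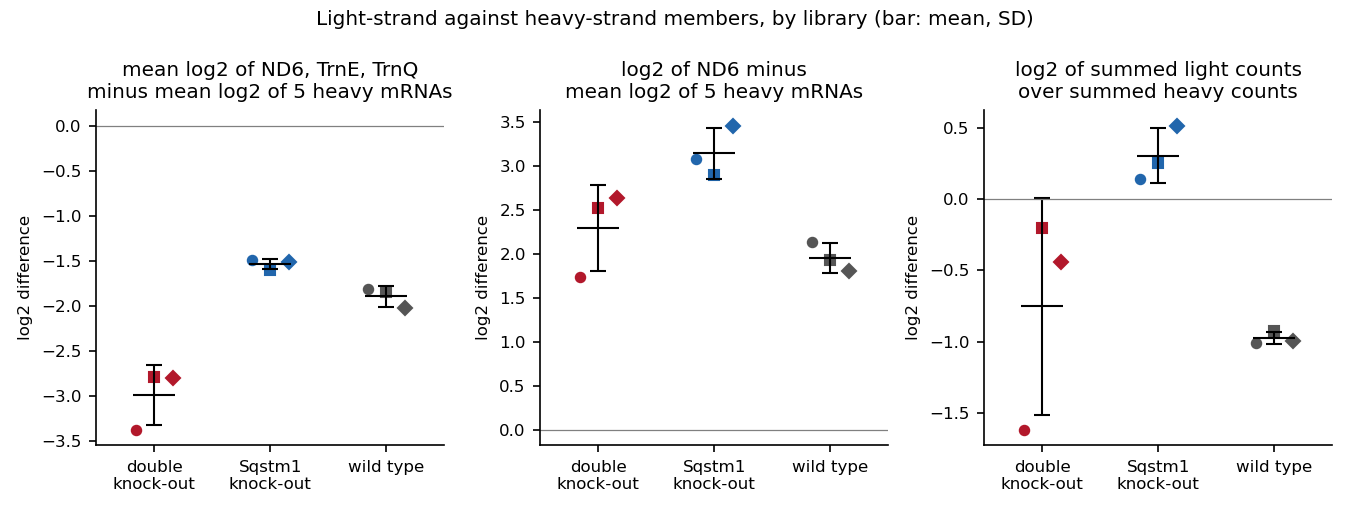
Light-strand against heavy-strand members by library, as log2 differences (vertical axes), for the DKO, KO and WT groups, with bars at the mean and error bars of 1 SD. The DKO libraries are lowest, at -3.38 to -2.79, when ND6, TrnE and TrnQ are averaged, but overlap with WT when ND6 stands for the light strand.

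Nuclear genes that make, cut, charge or use the mitochondrial RNAs were taken from 6 lists with 107 genes, of which 101 had a row and 77 were tested. In the limma fit 0 of 77 passed in DKO against WT, 0 of 77 in DKO against KO and 1 of 77 in KO against WT, where 6.42%, 5.93% and 5.61% of all genes tested passed. At an unadjusted p under 0.05 there were 6, 10 and 16 of them (7.79%, 13.0% and 20.8%), against 21.4%, 18.8% and 19.4% of all genes, a share below that of all genes in both DKO comparisons and close to it in KO against WT. The call was Rexo2, an oligoribonuclease that degrades short RNAs in mitochondria. Rexo2 had 26.8, 37.7 and 26.7 normalized counts in DKO libraries, 55.1, 43.0 and 72.7 in KO libraries, and 16.3, 15.8 and 26.7 in WT libraries. Every KO library was above every other library.

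Rexo2 rose in KO against WT by a log2 difference of 1.50 (SE 0.33, adjusted p = 0.0144 in limma), which missed the threshold without WT replicate 1 (adjusted p = 0.0740) or WT replicate 2 (adjusted p = 0.0943). For DKO against KO it was -0.87 (SE 0.33, adjusted p = 0.159 in limma). Over the 77 genes, as a description, the median log2 difference was -0.10 for DKO against WT, -0.35 for DKO against KO and 0.31 for KO against WT, against medians within 0.02 of 0 over all genes. Without KO replicate 3 the last 2 of these were both -0.07, over 74 genes, so the median shifts that involve KO rest on that library. With DESeq2, KO against WT had 2 calls, Rexo2 and the complex IV subunit Ndufa4, and in DKO against KO the rRNA methyltransferase Tfb1m was lower. Ndufa4 and Tfb1m were named after their values were seen, and exons of Tfb1m overlap those of a gene on the other strand.

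The 8 tested genes of mitochondrial transcription and DNA upkeep had median differences of 0.15 for DKO against WT, -0.35 for DKO against KO and 0.14 for KO against WT. For the 20 tested genes of RNA processing and decay they were -0.17, -0.25 and 0.21 in the same order. The 30 tested nuclear subunits of complex I, the partners of the ND proteins, had medians of -0.19, -0.43 and 0.33. The 11 tested nuclear subunits of complex IV, the partners of COX1, had medians of -0.05, -0.38 and 0.35. Of these, 24 of 30 complex I genes and 9 of 11 complex IV genes were highest in KO replicate 3. Without it the complex I medians were -0.11 for DKO against KO and -0.10 for KO against WT, and those of complex IV 0.11 and -0.16. The 6 tested regulators of mitochondrial biogenesis had medians of -0.18, -0.22 and 0.12. Of the 8 transcription and DNA genes, Tfb1m, Mterf2, Mterf3, Polg, Twnk and Primpol have exons opposite to those of another gene. Among 9119 tested genes matched in the GRCm38 annotation, 39.8% have such exons, and the other lists hold some too. As the strand setting is unknown, these rows and the list medians may include reads of the other gene, which was not tested.

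The enzymes that charge TrnE and TrnQ were checked in particular. The subunits of the amidotransferase that turns glutamate on the glutamine transfer RNA into glutamine include Gatb and Gatc. Gatb had 19.1, 24.0 and 21.7 normalized counts in DKO libraries, 23.5, 9.74 and 41.2 in KO libraries, and 30.0, 8.29 and 9.70 in WT libraries. Gatc had 228, 152 and 218 normalized counts in DKO libraries, 198, 134 and 133 in KO libraries, and 249, 227 and 164 in WT libraries. The groups of both genes overlapped in every comparison. Ears2, which charges glutamate, and Qrsl1, the catalytic amidotransferase subunit, had at most 8.29 and 10.8 normalized counts in any library and were below the filter.

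**Figure D5:**
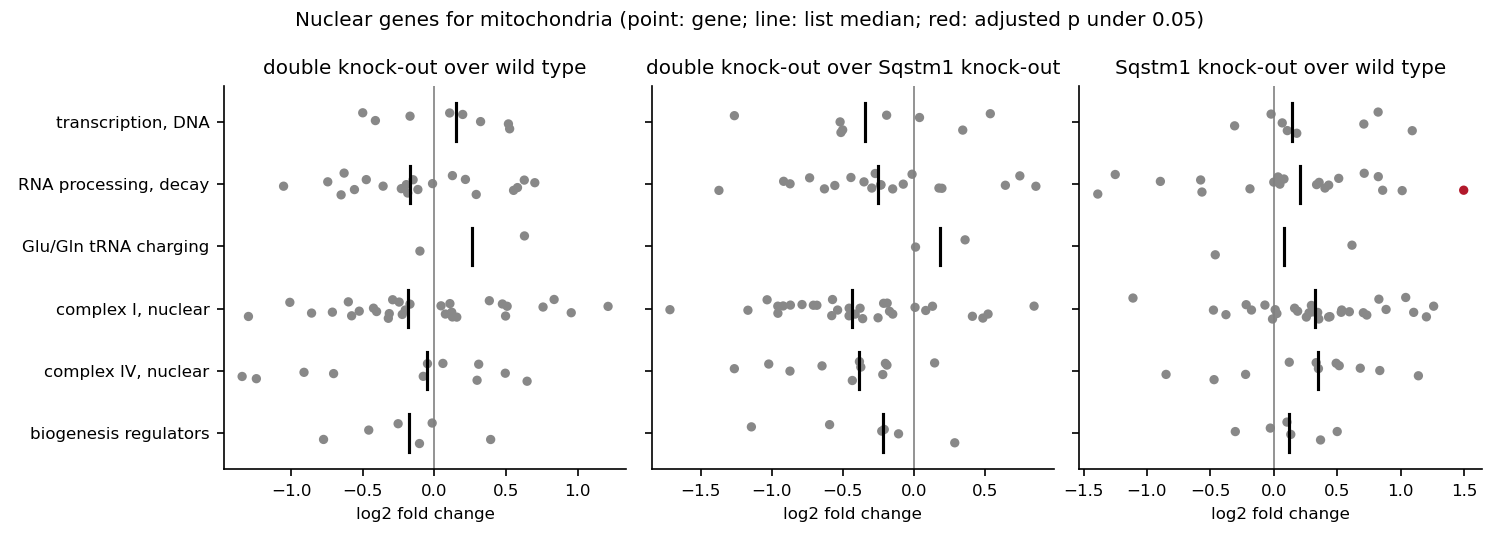
Log2 differences (horizontal axis) of the tested genes of 6 lists of nuclear genes for mitochondria (vertical axis), for DKO over WT, DKO over KO and KO over WT, with a point for each gene, a line at each list's median and genes past the threshold in red. Rexo2 in KO over WT, at 1.50, is the red point. The complex I median is -0.19, -0.43 and 0.33 in the 3 panels. Without KO replicate 3 it is -0.11 in DKO over KO and -0.10 in KO over WT.

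Among 3377 other tested genes with a mean of at least 50 normalized counts, those whose log2 values followed the mean of the light-strand members most closely over the 9 libraries were Fam210a (Pearson's r 0.977, Spearman's rho 0.983), Ube2k (r 0.960), Pter (r 0.955), Psma1 (r 0.943) and Me2 (r 0.933), the last 4 with rho of 0.667 to 0.950. Without the 2 libraries farthest from the median, DKO replicates 1 and 3, r was 0.984 for Fam210a and 0.800 to 0.899 for the others. Fam210a, which encodes a mitochondrial membrane protein, had 55.5, 107 and 81.5 normalized counts in DKO libraries, 147, 144 and 204 in KO libraries, and 165, 164 and 141 in WT libraries. Pter, a phosphotriesterase-related enzyme, had 14.3, 34.2 and 16.6 normalized counts in DKO libraries, 234, 209 and 363 in KO libraries, and 163, 116 and 97.0 in WT libraries. Both were lower in all DKO libraries than in any other, as the choice by likeness favours.

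For the heavy-strand mean the closest were Rad9b (r 0.960), the chaperone Hsp90aa1 (r 0.957), Pdap1 (r 0.949), the actin-nucleating subunit Arpc1b (r 0.948) and the splicing factor Snw1 (r 0.943), with rho of 0.833 to 0.917, and with r of 0.774 to 0.928 without KO replicate 3 and WT replicate 1. Each of these genes was highest in KO replicate 3, as was the heavy-strand mean. Exons of 5 of the 10 genes overlap those of a gene on the other strand (Fam210a, Rad9b, Pdap1, Arpc1b and Snw1), against 39.8% of 9119 tested genes matched in the GRCm38 annotation. Pdap1 and Arpc1b overlap each other, so reads of 1 locus may enter both rows, which was not tested. The likeness describes these 9 libraries, which share depth and size factors between genes, and the most alike of many genes are alike in part through the search itself.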

How the data were processed

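Gene-level RNA sequencing values of 9 libraries were read from 1 deposited table. Its signal values are normalized counts: the authors divided the reads of each gene by a size factor of the library. The submitters' processing notes name STAR, DESeq2 and the build GRCm39, without versions. Library kit, strand setting, counter and annotation were not stated there. Divided by the smallest value of their library, all values above 0 came out whole (100% of 121126, tolerance 0.01), so whole reads were recovered. There were 0 unused columns, and no pair of replicates in a group agreed within sampling noise.

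Genes were tested with limma (empirical Bayes, trended prior) on log2(value + 1), a scale that understates changes of low genes. It took genes with at least 10 in at least 3 libraries, all 9 libraries in 3 groups, two-sided, with Benjamini-Hochberg adjustment over all 10118 genes and a threshold of 0.05. An exact permutation test of 3 against 3 cannot go below 0.1. Alternatives were other pseudocounts, filters and scalings, edgeR's quasi-likelihood test and DESeq2 on recovered reads, a replicate block, fits to the groups compared, and leaving out each library. The fit was also run on simulated counts that had the same dispersion for every gene and no outlying library. That run therefore does not measure the error of the fit in these libraries. The tools were limma 3.58.1, DESeq2 1.42.0 and edgeR 4.0.16 in R 4.3.3. The members and lists were chosen with earlier results of these data known. Named genes were all mitochondrial rows, Sqstm1, Nbr1, called members of the nuclear lists, the charging enzymes, and the 5 genes most like each strand's mean. Some cell type markers and some genes with opposite-strand exons were named besides. Gene order and the lengths used per kilobase came from a RefSeq gene annotation, to which the strands of GENCODE M21 were matched by position. Sequences and opposite-strand exons came from GENCODE M21 on GRCm38, by name, with all 20 mitochondrial rows matched. No coordinates are given, and 1 gene of the nuclear lists is not reported here by name.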

Additional observations from a re-analysis of the deposited data

How the results depend on the processing

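TrnE stayed past the threshold in both DKO comparisons in 9 of 9 fits that left out a library and in 11 of 11 other settings; TrnQ did so in 9 of 9 and, against WT, in 11 of 11. Against KO, TrnQ missed it when only those groups were fitted, which left 1 member called. In KO against WT, 1 member was called after quantile normalization (ND4) and 1 with DESeq2 (ND6). ND6 also joined with DESeq2 in DKO against KO, and ND4 after quantile normalization and with DESeq2 in DKO against WT, which made 3 members each. Leaving out libraries gave 0 to 0 members in KO against WT, 2 to 2 in DKO against KO and 2 to 3 in DKO against WT, where ND4 joined without KO replicate 3. The causes were not tested.

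All genes called numbered 650 for DKO against WT, 600 for DKO against KO and 568 for KO against WT. With a filter of 50 they were 360, 291 and 290 (3921 genes tested), and with only the groups compared 1229 for DKO against WT and 352 for DKO against KO. DESeq2 gave 880, 716 and 802, and edgeR 735, 614 and 642. Leaving out 1 library gave 251 to 1409, 243 to 764 and 226 to 651. Quantile normalization gave 529 higher and 389 lower, 423 and 203, and 316 and 372, against 416 and 234, 447 and 153, and 246 and 322.

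Of the nuclear genes, DKO against WT had 1 call with a filter of 50, with DESeq2 and with only those groups fitted. DKO against KO had 1 with a filter of 50, and 2 with DESeq2. KO against WT had 0 with that filter, which Rexo2 did not pass, and 2 with DESeq2. Leaving out libraries gave 0 to 2 calls in each comparison.

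Light minus heavy for ND6 alone was 0.34, -0.85 and 1.18 for DKO against WT, DKO against KO and KO against WT, and by summed values 0.22, -1.06 and 1.28; leaving out libraries gave -1.20 to -0.90, -1.55 to -1.26 and 0.29 to 0.40. The Sqstm1 difference of DKO from KO, -0.15, was -0.46 to 0.27 when libraries were left out, with 0.27 without KO replicate 3 and 0.21 without DKO replicate 1.

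Libraries with the same replicate number had correlations of deviations of -0.12 to 0.18. For replicate 1 they were 0.18 for KO against WT, 0.15 for DKO against KO and 0.14 for DKO against WT. The highest with another number were -0.01, -0.02 and -0.03. The same number was not the higher in every case, as with -0.12 against 0.12 for replicate 3 in DKO against WT. Whether same-numbered libraries share more than a number was not tested. The replicate block gave 754, 672 and 690 calls, with 2 nuclear genes in KO against WT (Rexo2 and Ndufa4). With edgeR and the block, added after seeing the data, it was 821, 665 and 742, with 2 nuclear genes in KO against WT and 2 in DKO against KO (Tfb1m and Ndufb6). Counting depth limits the rows with few reads, among them TrnQ, TrnI, TrnW, TrnM, TrnY and ND3.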
